A study of Mus musculus with 6 samples.

Results

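The transcripts followed here were those of 10 immediate early genes of mouse Ba/F3 cells, grouped by the factors they encode: Egr1, Egr2 and Egr3 of the EGR family, the AP-1 subunit genes Fos, Fosb, Jun, Junb and Jund, the gene Ier2, and Myc. The members were all probe sets that the platform annotation gives to these symbols alone, which came to 14 of the 45101 probe sets on the array. They stood for 10 of the 18193 genes with such a probe set. Egr2, Egr3, Jun and Jund had more than 1 probe set each.

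Ba/F3 is an established mouse pro-B cell line that grows only with interleukin 3. The tested cells expressed NCOR1-LYN, a fusion of the nuclear receptor corepressor NCOR1 and the tyrosine kinase LYN, from a retroviral Tet-on construct that was switched on with doxycycline (DOX(+), 3 arrays, replicates 1 to 3). The control cells were uninduced Ba/F3 cells without doxycycline (DOX(-), 3 arrays, replicates 1 to 3), called mock or control in the labels, which do not say whether they were the construct-bearing cells left uninduced or other Ba/F3 cells. Each sample was hybridised to 1 Affymetrix array. Because all NCOR1-LYN cultures and none of the controls received doxycycline, effects of doxycycline and of NCOR1-LYN cannot be told apart, nor can any difference between the groups in carrying the construct or in cell stock. The labels give no time of induction, no interleukin 3 dose and no clone, and they describe the replicates only as triplicate cultures, so the p-values cover no more than the spread among these 6 arrays. In RNA from whole cultures, fewer cells that express a gene and less RNA per cell cannot be told apart.

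Immediate early genes are transcribed within minutes of a stimulus, without new protein synthesis, when kinases such as ERK act on factors already bound at their promoters, among them SRF with its ternary complex factors and CREB. Their messages and proteins are short-lived, so their levels are known to follow current signalling from cytokine receptors and tyrosine kinases closely. EGR proteins are zinc finger transcription factors, AP-1 is a dimer of a FOS with a JUN protein or of JUN proteins, and MYC binds DNA with MAX at genes of growth and metabolism. In cells that depend on interleukin 3, the cytokine is known to induce Fos, Jun, Egr1 and Myc.

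The 6 arrays had median signals of 54.8 to 61.9, with the same trimmed mean on every array. The replicate 1 arrays of both groups differed from the rest, at -24.9 (NCOR1-LYN) and -37.2 (control) on a first principal component with 58% of the variance, against 12 to 18.6 for the other 4 arrays. Both replicate 1 arrays were above all other 4 arrays for 26.8% of the 10916 genes tested and below them for 21.4%, together 48.2%. The first held for 2 members, Fos and Jund, and the second for 0. Changes were therefore read within same-numbered pairs (NCOR1-LYN 1 minus control 1, and so on) as well as between groups, and the test was run without and with the replicate number as a block. Of the 8 pro-B markers on the array, 3 were bright enough to be tested, among them Cd79b, a chain of the B cell receptor, at 436 ± 24.9 in NCOR1-LYN and 471 ± 93.0 in control cells (SD, n = 3 each). For 5 pro-B markers, among them Cd79a, Ebf1 and Rag1, every array was below a signal of 64. Pax5, the B lineage factor, had pairwise log2 changes of 0.01, -1.07 and 0.58.

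All 3 interleukin 3 receptor genes were bright, with summed signals of 24102 to 41613 in NCOR1-LYN and 20491 to 42339 in control cells. Of the 3, 1 was higher in every pair and the others went both ways, with list medians of -0.68, 0.68 and 0.96 on the log2 scale in pairs 1, 2 and 3. Csf2rb, the shared beta chain, had 13827, 20743 and 25885 with NCOR1-LYN, against 22251, 12964 and 12267 in control cells. With both replicate 1 arrays left out, Csf2rb (adjusted p = 0.00056) and Csf2rb2 (adjusted p = 9.06e-05) passed as higher in limma, where 3.18% of all genes did. Over all arrays neither gene passed without or with the replicate block (Csf2rb, adjusted p = 0.999 and 0.711 in limma). All 3 tested macrophage markers were below 0, with a median log2 fold change of -0.19 and summed signals of 662 to 1350 with NCOR1-LYN against 1035 to 1451 in control cells. Cd68, a lysosomal glycoprotein of macrophages, had 83.2, 181 and 149 with NCOR1-LYN, against 206, 290.4 and 259.7 in control cells. It was lower in every pair without overlap of the groups (-0.67 ± 0.14 with the block, SE, adjusted p = 0.116), passed with array weights, and its part in the members' values was not tested. Markers of T and NK cells summed to 119 to 135 and 143 to 195, and those of fibroblasts to 63.8 to 128 and 100.2 to 193 (NCOR1-LYN and control cells). Their tested genes, Cd8a of T cells and Col1a2 of fibroblasts, had -0.28 ± 0.15 and -0.49 ± 0.18 on the log2 scale with the block (SE, adjusted p = 0.553 and 0.36).

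With NCOR1-LYN, Egr3 was lower by the largest margin among these genes, Egr2, Fos, Junb and Ier2 were lower by smaller margins, and Jun and Myc were higher. Of the 8 members bright enough to be tested, 5 were lower in all 3 pairs (Egr2, Egr3, Fos, Junb and Ier2), 2 were higher in all 3 (Jun and Myc), and Jund was mixed. Of all genes tested, 18.9% were lower and 15.9% higher in all 3 pairs, so 34.7% had 1 direction throughout. Without a block 0 of the 8 passed an adjusted p of 0.05 in limma, where 0.0824% of all genes did (0.055% higher, 0.0275% lower), and 4 had an unadjusted p under 0.05, where 4.75% did. With the replicate block 1 of the 8 passed, Egr3, where 0.824% of all genes did, and 7 had an unadjusted p under 0.05, where 11.3% did. Egr1 and Fosb lay under the limit for dim genes, a mean signal of about 47, and were not tested. The groups did not overlap for 4 members, lower for Egr3 and Ier2 and higher for Jun and Myc, where 6.06% of all genes were lower and 5.18% higher without overlap, 11.2% together. Over probe sets, 0 of the 11 tested passed without a block in limma, where 0.0254% of all did, and 5 had an unadjusted p under 0.05, where 5.15% did. With the block 1 of the 11 passed, where 0.768% did, 8 had an unadjusted p under 0.05, where 12% did, and groups did not overlap for 4, where 11.5% did.

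**Figure D1:**
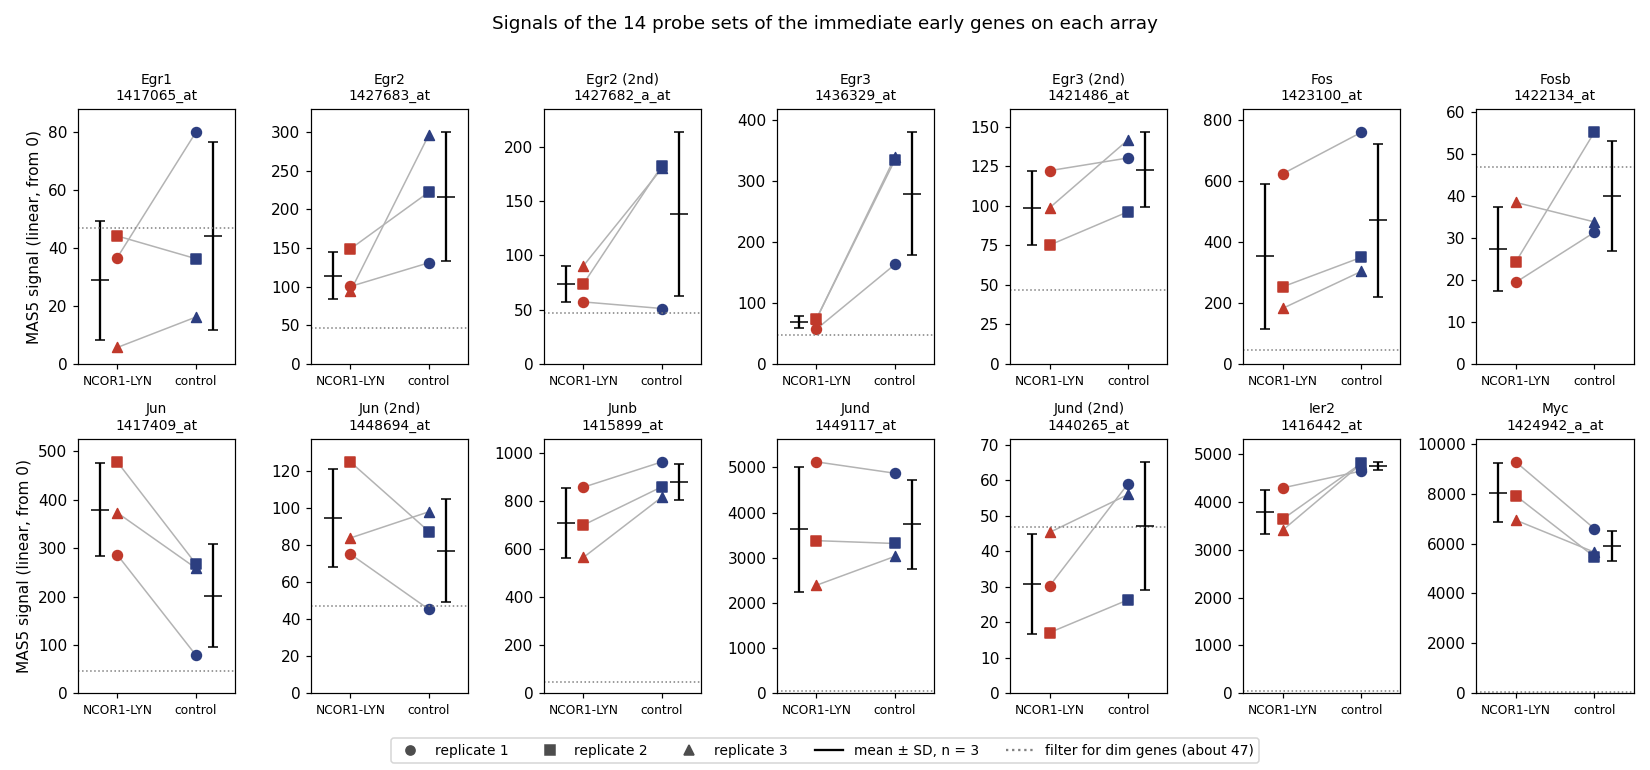
MAS5 signal (linear axis from 0) of each of the 14 probe sets on every array, NCOR1-LYN left and control right, with lines joining arrays of the same replicate number, mean ± SD (n = 3) beside the points and the limit for dim genes dotted. The brighter Egr3 probe set sat between 57.1 and 73.9 with NCOR1-LYN, below all control arrays at 163 to 339.7, while Jun and Myc sat above all control arrays.

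Egr3, a zinc finger factor known in lymphocytes as a target of antigen receptor signalling and calcium, had signals of 57.1, 73.7 and 73.9 in NCOR1-LYN replicates 1, 2 and 3, against 163, 335 and 339.7 in control replicates 1, 2 and 3, in its brighter probe set (1436329_at). All NCOR1-LYN arrays were below all control arrays, and each was between 0.217 and 0.350 times its control. The 3 NCOR1-LYN arrays were close to the limit for dim genes. Egr3 fell with the replicate block, with a log2 fold change of -1.33 ± 0.18 (SE) and an adjusted p of 0.0288 in limma, while the fit without a block gave -1.33 ± 0.24 and an adjusted p of 0.25. Log2 fold changes are of signal + 64 here and below, which understates the change of dim genes. An offset of 16 in place of 64 gave -1.75 and the largest offset tried gave -0.71. With the block the call was lost without pair 2 (-1.23, adjusted p = 0.358) or pair 3 (-1.22, adjusted p = 0.178) and kept without pair 1 (-1.54, adjusted p = 9.96e-16). These fits were added after the data were seen and have 1 residual degree of freedom. The fit without pair 1 takes its spread almost wholly from all genes together, so its p-value does not measure the spread of Egr3 itself. With both replicate 1 arrays left out and no block, Egr3 had an adjusted p of 0.00021. Without control replicate 1 the fit without a block gave -1.60 and an adjusted p of 0.0282. The dimmer Egr3 probe set (1421486_at) had 122, 75.1 and 98.7 with NCOR1-LYN, against 130.3, 96.3 and 142 in control cells. It was lower in each pair too, by 0.06, 0.20 and 0.34 on the log2 scale, but its groups overlapped and it did not pass with the block (-0.20 ± 0.15, adjusted p = 0.646 in limma over the 23579 probe sets tested). The mean of both probe sets gave a log2 fold change of -0.77 for the gene.

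Egr2, a paralogue of Egr3 known for its part in lymphocyte development and myelination, had signals of 100.1, 149 and 93.7 with NCOR1-LYN, against 131, 222 and 296 in control cells (probe set 1427683_at, replicates 1, 2 and 3 in each group). Every NCOR1-LYN array was below its own control, and the groups overlapped only through control replicate 1, the lowest control, which lay below NCOR1-LYN replicate 2. The pairwise log2 changes were -0.25, -0.43 and -1.19, a log2 fold change of -0.62 ± 0.21 with the block (SE, adjusted p = 0.316). The second Egr2 probe set (1427682_a_at) had 57.1, 73.8 and 90.5 with NCOR1-LYN, against 51.1, 183 and 180.4 in control cells. In that probe set pair 1 showed 0.07 on the log2 scale, and pairs 2 and 3 showed -0.84 and -0.66. In both Egr2 probe sets and the brighter Egr3 probe set, control replicate 1 was the lowest control. Egr1, the member of the family most often used as a readout of ERK signalling, had 36.6, 44.1 and 5.64 with NCOR1-LYN, against 79.8, 36.3 and 16.1 in control cells (1417065_at). These values lay below the limit for dim genes on 5 of the 6 arrays, and the pairs went both ways, so no difference was detectable for Egr1 (unfiltered log2 fold change -0.20 ± 0.25, SE, adjusted p = 0.999 in limma).

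Among the AP-1 genes, Jun, the central JUN subunit and one that is known to bind its own promoter, had signals of 286, 479 and 373 with NCOR1-LYN, against 79.1, 268 and 259 in control cells (1417409_at). All NCOR1-LYN arrays were above all control arrays, and the ratios to the same-numbered control were 3.62, 1.79 and 1.44. Its log2 fold change of 0.81 ± 0.18 with the block (SE) did not pass over all genes (adjusted p = 0.134). Replicate 1 was the lowest array of each group, and the change in pair 1 exceeded the mean of pairs 2 and 3 by 0.72 ± 0.28 on the log2 scale (SE, adjusted p = 0.0546 in limma). With an offset of 16 that difference was 1.02 and passed (adjusted p = 0.0179). Without control replicate 1 the log2 fold change of Jun was 0.41. The dimmer Jun probe set (1448694_at) had 75.2, 125 and 83.9 with NCOR1-LYN, against 45.3, 87.4 and 98.0 in control cells, with overlapping groups and a lower value in pair 3.

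Fos, the partner that forms the classical AP-1 dimer with JUN, had signals of 623, 252 and 182 with NCOR1-LYN, against 759, 349 and 303 in control cells (1423100_at). Its 2 replicate 1 arrays were above all other 4 arrays, so the groups overlapped widely, with means of 352 ± 237 and 470 ± 251 (SD, n = 3 each, NCOR1-LYN and control cells). Within pairs Fos was lower each time, with ratios of 0.821, 0.723 and 0.600 to the same-numbered control and a log2 fold change of -0.41. The SE of this change was 0.44 without and 0.13 with the block, and it did not pass with either (adjusted p = 0.999 and 0.283 in limma). Without control replicate 1 the value of Fos was -0.05, and without NCOR1-LYN replicate 1 it was -0.84. Each of those fits left 1 of the 2 high arrays in.

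Junb, a JUN protein that is known to weaken JUN activity at some promoters, had signals of 859, 701 and 566 with NCOR1-LYN, against 965, 861 and 818 in control cells (1415899_at). Each NCOR1-LYN array was below its own control, by 0.16, 0.27 and 0.48 on the log2 scale, and the groups overlapped through NCOR1-LYN replicate 1 alone. The log2 fold change was -0.30 ± 0.11 with the block (SE, adjusted p = 0.377). Jund, the JUN protein gene that is expressed steadily rather than induced, had 5121, 3377 and 2391 with NCOR1-LYN, against 4869, 3315 and 3030 in control cells (1449117_at). Like Fos it was highest in the replicate 1 arrays of both groups, but its pairs went both ways (0.07, 0.03 and -0.33 on the log2 scale). Its dimmer probe set (1440265_at), with 30.2, 17.1 and 45.3 with NCOR1-LYN against 59.0, 26.3 and 56.0 in control cells, and the single Fosb probe set, were under the limit for dim genes. Fosb, a FOS paralogue, had 19.4, 24.3 and 38.5 with NCOR1-LYN, against 31.3, 55.2 and 33.8 in control cells (1422134_at).

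Ier2, an immediate early gene whose product is nuclear, had signals of 4293, 3639 and 3409 with NCOR1-LYN, against 4645, 4804 and 4794 in control cells (1416442_at). The control arrays differed little from each other (4748 ± 89.3, SD, n = 3), and all NCOR1-LYN arrays were below them (3780 ± 459, SD, n = 3). The log2 fold change of Ier2 was -0.33 ± 0.10 with the block (SE, adjusted p = 0.299). Myc, the MAX partner and driver of growth genes, had signals of 9275, 7921 and 6941 with NCOR1-LYN, against 6603, 5475 and 5657 in control cells (1424942_a_at). All NCOR1-LYN arrays were above all control arrays, and the ratios to the same-numbered control were 1.40, 1.45 and 1.23. The log2 fold change of Myc was 0.44 ± 0.09 with the block (SE, adjusted p = 0.117).

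**Figure D2:**
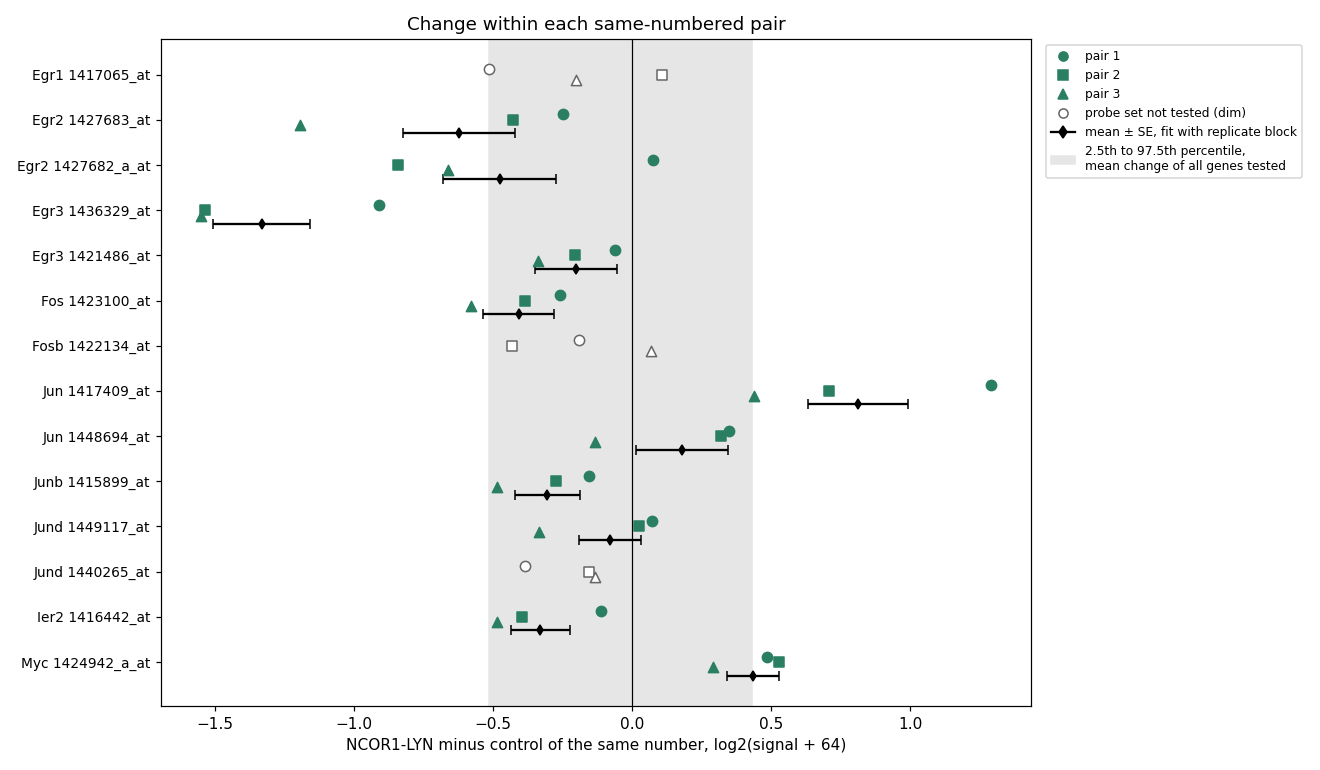
Change within each same-numbered pair (NCOR1-LYN minus control on log2(signal + 64), x axis) for every probe set, with the mean ± SE of the fit with the replicate block as a diamond, and open marks for probe sets too dim to be tested. The grey band holds the central 95% of mean changes of all genes tested, from -0.51 to 0.43, and the mean changes of the brighter Egr2, Egr3 and Jun probe sets lie outside it, with Myc at its edge.

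Set against the changes of all 10916 genes, Egr3 stood at the 0.192th percentile, Egr2 at the 1.49th, Fos at the 4.34th, Ier2 at the 6.80th and Junb at the 8.07th, while Jun stood at the 99.5th and Myc at the 97.6th. These are ranks of size and say nothing of the spread. The change in the replicate 1 pair differed from that in pairs 2 and 3 for 0 of the 8 members past an adjusted p of 0.05 in limma, where 16.2% of all genes passed, and for 2 members at an unadjusted p under 0.05 (Jun and Ier2), where 27.4% did. That contrast has 1 residual degree of freedom. Its spread comes from pairs 2 and 3, almost wholly as pooled over all genes in limma, so a gene's own spread hardly enters. With both replicate 1 arrays left out, 5 of the 8 members passed in limma (Egr2, Egr3 and Ier2 lower, Jun and Myc higher), where 6.82% of all genes did (3.18% higher, 3.64% lower), and 7 had an unadjusted p under 0.05, where 19.7% did. That fit held 2 arrays per group, and the same genes apart from Jun passed with array weights, which were estimated from the same arrays.

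**Figure D3:**
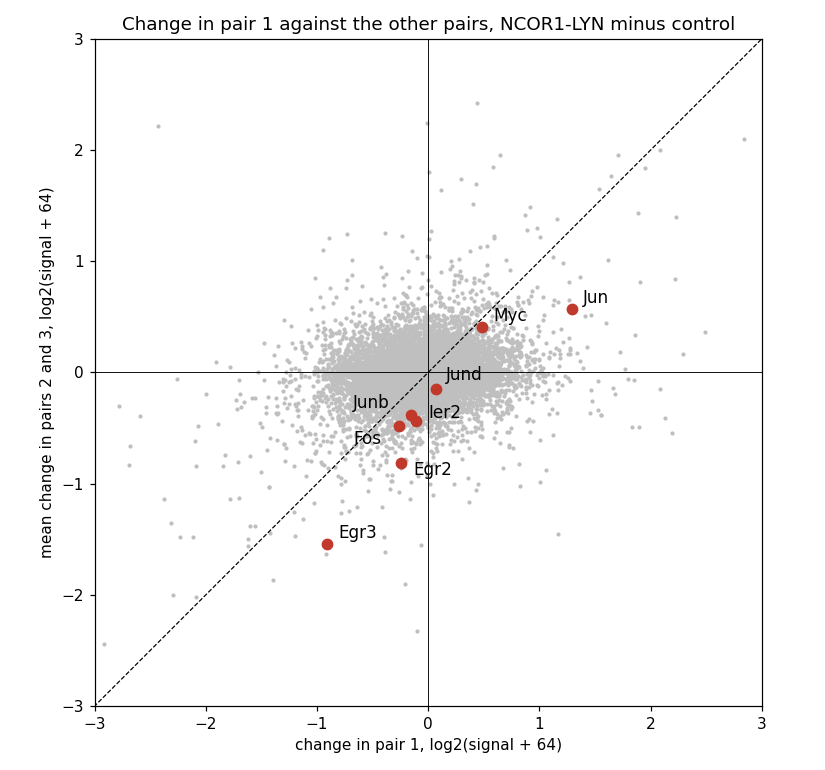
Change in pair 1 (x axis) against the mean change in pairs 2 and 3 (y axis), NCOR1-LYN minus control on log2(signal + 64), for the 10916 genes tested (grey, 7 outside the axes) and the 8 tested members (red), with the line of equal change dashed. Egr3 and Egr2 lie below the line, Jun to the right of it, and Myc close to it.

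Promoters of 6 of the 10 members were searched, from the RefSeq table used (GRCm38.p6). The chromosome of Egr1 was left out of the member search, and Egr3, Ier2 and Myc had no window in the table. The 250 bases before the start are shown for Egr2 and Fos, which were lower in every pair, and for Jun, which was higher. Capitals mark matches on either strand to 6 motifs: the CArG box bound by SRF (CC, 6 of A or T, GG), the CRE (TGACGTCA) and its shorter form (TGACG) bound by CREB and AP-1 relatives, the AP-1 site (TGANTCA), the E-box bound by MYC and MAX (CACGTG) and an EGR site (GCGGGGGCG). Matches to the shorter form include those within a full CRE.
Egr2 (chr10:67537619-67537868, plus strand): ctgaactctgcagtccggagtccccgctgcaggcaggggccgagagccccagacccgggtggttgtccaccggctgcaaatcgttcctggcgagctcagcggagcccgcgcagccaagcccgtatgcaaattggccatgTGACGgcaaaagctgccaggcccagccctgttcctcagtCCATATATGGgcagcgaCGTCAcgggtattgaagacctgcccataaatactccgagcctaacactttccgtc
Fos (chr12:85473640-85473889, plus strand): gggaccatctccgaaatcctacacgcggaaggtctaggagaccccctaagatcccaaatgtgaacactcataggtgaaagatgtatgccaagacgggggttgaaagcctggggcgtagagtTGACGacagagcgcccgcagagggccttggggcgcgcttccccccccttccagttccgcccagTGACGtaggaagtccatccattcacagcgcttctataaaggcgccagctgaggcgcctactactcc
Jun (chr4:95052223-95052472, minus strand): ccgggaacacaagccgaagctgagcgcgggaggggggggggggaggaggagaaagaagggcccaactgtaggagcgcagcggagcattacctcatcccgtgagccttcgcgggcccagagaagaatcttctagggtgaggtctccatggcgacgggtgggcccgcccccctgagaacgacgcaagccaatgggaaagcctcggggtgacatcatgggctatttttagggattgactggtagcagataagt
The Egr2 window, 1 of 5 listed for that gene, held a CArG box 72 to 63 bases before the start, and 4 of the 5 windows held one, 3 of them overlapping over the same box. A CArG box was found in 1.47% of all 32851 windows of this length and in 0 of the other 5 members searched, which did not include Egr1. Bases further than 250 from the start were not searched, so boxes there would be missed. The same Egr2 window held TGACG in both orientations (111 to 107 and 55 to 51 bases before the start), and Fos held it at 129 to 125 and 66 to 62, while 17.8% of all windows held at least 1. Fosb and Junb held TGACG as well, and Fosb an EGR site, found in 2.57% of windows. The printed Jun window held 0 of the 6 motifs, which says only that these letters are absent from it. The full CRE was in 1.55% and the AP-1 site in 6.75% of all windows and in 0 of the 6 members, and an E-box (6.02% of windows) was in 1 other Egr2 window.

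Around these members, 107 further genes of the same pathways were listed (other immediate early genes, the regulators that induce them, other AP-1 partners, EGR co-repressors and targets, AP-1 targets, MYC partners and targets, and mRNA decay factors), of which 83 were bright enough to be tested. Without a block 0 of the 83 passed in limma, where 0.0824% of all genes did, and 7 had an unadjusted p under 0.05, where 4.75% did. With the block 2 fell and 0 rose, Elk3 and Zfp36l2, against 0.559% and 0.266% of all genes.

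Elk3, a ternary complex factor that binds CArG box promoters with SRF and is known to repress them until it is phosphorylated, had signals of 811, 1063 and 1197 with NCOR1-LYN, against 1961, 2038 and 2099 in control cells. The groups were far apart, with the highest NCOR1-LYN array well below the lowest control array. Its log2 fold change was -0.96 ± 0.12 with the block (SE, adjusted p = 0.0221) and the adjusted p was 0.169 without it. The Elk3 call was lost with the block when pair 2 (adjusted p = 0.325) or pair 3 (adjusted p = 0.0932) was left out and kept without pair 1 (-0.84, adjusted p = 2.84e-18). The fit without pair 1 has 1 residual degree of freedom and takes its spread almost wholly from all genes together. Its p-value does not measure the spread of Elk3 itself. With both replicate 1 arrays left out and no block, Elk3 had an adjusted p of 0.000201. Dimmer Elk3 probe sets above the limit had log2 fold changes of -0.69 and -0.72, lower in each pair. The other 13 tested regulators did not pass, and their list of 14 had a median log2 fold change of -0.02, against -0.01 over all genes. Zfp36l2, which encodes a protein that binds AU-rich messages and promotes their decay, had 6236, 4993 and 4550 with NCOR1-LYN, against 9187, 8476 and 7543 in control cells. The groups did not overlap, and the log2 fold change was -0.68 ± 0.09 with the block (SE, adjusted p = 0.029) with an adjusted p of 0.39 without it. The Zfp36l2 call was lost with the block when pair 2 (adjusted p = 0.409) or pair 3 (adjusted p = 0.308) was left out and kept without pair 1 (-0.74, adjusted p = 1.14e-15). The limit given for Elk3 in the fit without pair 1 holds for Zfp36l2 too. With both replicate 1 arrays left out and no block, Zfp36l2 had an adjusted p of 0.000353, and its dimmer probe sets had -0.23 each, 1 of them higher in pair 2. The 8 tested decay factors had a median log2 fold change of -0.08, and 6 were below 0.

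**Figure D4:**
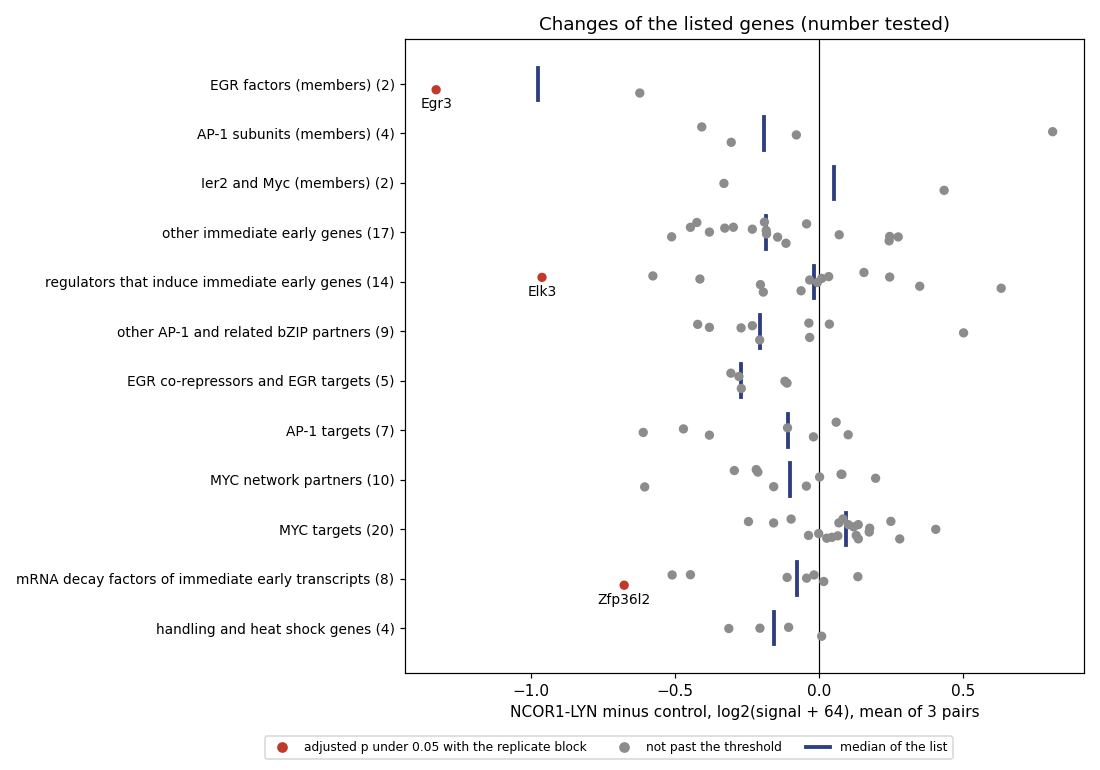
Log2 fold change (mean of 3 pairs, NCOR1-LYN minus control) of each tested gene by list, with the number tested in brackets, red where the adjusted p was under 0.05 with the replicate block, and a bar at the median. Egr3, Elk3 and Zfp36l2 are the 3 red points.

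The 17 tested genes of the list of other immediate early genes gave 0 calls without or with the block, 13 of them were below 0, and the median of the list was -0.18 on the log2 scale (-0.21, -0.13 and -0.14 in pairs 1, 2 and 3). The median over all genes tested was -0.01. Plk3, a stress-responsive polo-like kinase gene, had the largest change of that list, with 157, 43.1 and 31.6 with NCOR1-LYN against 108, 108 and 158 in control cells, so that pair 1 was higher and pairs 2 and 3 were lower. Of 9 other AP-1 and related bZIP genes, 7 were below 0 (median -0.21, 0 calls), and the largest change was that of Jdp2, a JUN partner that represses AP-1 sites, at 0.50 ± 0.15 with the block (SE, adjusted p = 0.256). The pairs of Jdp2 had 0.92, 0.19 and 0.40, and its change in pair 1 differed from that in pairs 2 and 3 (adjusted p = 0.00083 in limma). All 5 tested EGR co-repressors and targets were below 0 (median -0.27, 0 calls), 3 of them in every pair, where 18.9% of all genes were. The largest value was that of Cblb, a ubiquitin ligase gene, at -0.31 ± 0.15 (SE with the block, adjusted p = 0.506). Its pairs had -0.71, -0.15 and -0.06, and the change in pair 1 differed from that in pairs 2 and 3 (adjusted p = 0.0057 in limma). Of the 3 Cblb probe sets, the dimmest had a log2 fold change of 0.44. The 7 tested AP-1 targets had a median of -0.11 and 0 calls, and Mmp9, a secreted metalloprotease gene, had the largest change, with 239, 157 and 157 with NCOR1-LYN against 452, 273 and 239 in control cells (adjusted p = 0.124 with the block).

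Next to the higher Myc signal, the 20 tested MYC targets gave 0 calls, 15 were above 0, and their median log2 fold change was 0.09, against -0.01 over all genes. Their pair medians were 0.25, 0.00 and -0.04, so the median was above 0 through pair 1, while Myc itself was higher in every pair. Odc1, the first enzyme of polyamine synthesis and a classical MYC target, had the largest change, with 7950, 6954 and 6819 with NCOR1-LYN against 4559, 5826 and 6045 in control cells (adjusted p = 0.317 with the block). The groups did not overlap in that probe set, and its change in pair 1 differed from that in the other pairs (adjusted p = 0.0015 in limma). Dimmer Odc1 probe sets had log2 fold changes of 0.40 and 0.02. The 10 tested MYC network partners had a median of -0.10 and 0 calls, and the MAX partner Mxd4, which opposes MYC at shared sites, had -0.61 ± 0.17 with the block (SE, adjusted p = 0.236). The brightest Mxd4 probe set was lower in every pair, and the 3 dimmer ones went both ways between pairs.

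Immediate early genes also respond to handling of cells. Of 7 handling and heat shock genes 4 were tested, with 0 calls and a median log2 fold change of -0.16, and their summed signals were 25794 to 35046 with NCOR1-LYN and 29351 to 30968 in control cells. Hspa1a and Hspa1b, the inducible HSP70 genes, were below a signal of 64 on every array, and Hspb1 had the largest change of that list (-0.31 ± 0.17 with the block, SE, adjusted p = 0.545). The beta-actin controls had a 3′ to 5′ signal ratio of 1.19 ± 0.04 with NCOR1-LYN and 1.21 ± 0.04 in control cells, and that of Gapdh 0.71 ± 0.03 in both (SD, n = 3, two-sided exact permutation p = 0.5 and 1, where 0.1 is the smallest possible). The beta-actin ratio was lowest in the replicate 1 arrays of both groups (1.15 and 1.17), the arrays in which Fos and Jund were highest. The Gapdh ratio was lowest there too, at 0.681 with NCOR1-LYN and 0.685 in control cells, against 0.703 to 0.742 on the other arrays. The part of these ratios in the levels of Fos and Jund was not tested.

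Over the 6 arrays, the other tested genes with log2 values most alike were Capg, Lpxn and Tnfrsf9 for Egr3 (Pearson r of 0.994, 0.982 and 0.982), Cdk18, Tatdn2 and Nol4l for Fos (0.998, 0.997 and 0.996), Chchd7, Trip11 and Mrps30 for Jun (0.997, 0.993 and 0.993) and Kcna3, Bbof1 and Lonrf1 for Myc (0.990, 0.986 and 0.984). All such values share the same 6 arrays and the same shift of replicate 1, and 239 genes reached an r over 0.95 with Fos, against 30 with Egr3, 89 with Jun and 30 with Myc. Among the members, Fos and Jund followed each other (r = 0.95) and Egr2 followed Egr3 (r = 0.90), while Myc ran opposite to Egr3 (r = -0.92). The difference between the groups was left in all of these correlations. That of Myc with Egr3 thus partly restates their opposite changes between the groups.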

How the data were processed

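Values are the authors' deposited probe set intensities on a linear scale, made with MAS5 per the submitters' processing notes (version not given in the sources used here), from Affymetrix arrays of biotin-labelled RNA. The values show scaling of each array to a mean of 500 after trimming 2% at each end. MAS5 corrects for mismatch probes, so dim signals are noisy, and precision is limited by having 6 arrays. No detection calls were used.

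Signals were used as log2(signal + 64). The platform annotation gave 1 symbol to 34945 of the 45101 probe sets, several to 932 and none to 9160, beside 64 controls. Each gene was represented by its brightest probe set, and genes below the 40th percentile (a signal of about 47) were left out, leaving 10916. The test was that of limma 3.58.1, run in R 4.3.3 (lmFit, eBayes with an intensity trend, two-sided, Benjamini-Hochberg over all genes, threshold 0.05), without a covariate (4 residual degrees of freedom) and with the replicate number as a block (2). The same test was run over the 23579 probe sets above that signal. The fits were also run on simulated data drawn from the fit with the block, so those runs cannot test the pairing of the arrays. Same-numbered arrays deviated together from their group means (correlations across genes of 0.62, 0.41 and 0.44, each over 0.1). Numbers were treated as pairs for that reason, although the labels state no shared day. Deviations within a group cancel out, so the shift of replicate 1 in both groups by itself raises the correlations of the other replicates. The pairing therefore rests mostly on replicate 1, and these correlations cannot tell how the other numbers match. Named genes were all members and, per list, up to 4 called genes or, where none was called, that of largest change. Cd79a, Cd79b, Ebf1, Rag1, Csf2rb2, Hspa1a, Hspa1b and the genes under other observations fall outside this rule and were chosen after their values were seen. The members and lists were chosen with earlier results of these data known. Array values carry no genome build. Promoters are from RefSeq (GRCm38.p6).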

Additional observations from a re-analysis of the deposited data

How the results depend on the processing

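Under 17 alternatives listed with the design and 3 added after the data were seen, the direction of Egr2, Egr3, Fos, Jun, Junb, Ier2 and Myc held wherever the gene was tested, and that of Jund ran from -0.36 to 0.18 when 1 array was left out, above 0 without NCOR1-LYN replicate 3 (0.18) or control replicate 1 (0.12), and was 0.049 with the block and without replicate 3. The number of member genes past the threshold was 0 without a block, 1 with the replicate block, 5 when both replicate 1 arrays were left out, 4 under array weights, and 0 to 1 when single arrays were left out (1 without control replicate 1). For the 11 tested member probe sets the counts without a block, with it, without both replicate 1 arrays and under array weights were 0, 1, 4 and 3. For listed genes they were 0, 2, 15 and 11 of 98 tested, which include the cell type markers, interleukin 3 receptor chains and handling genes. Of the 83 pathway genes alone, 2 passed as higher and 11 as lower without both replicate 1 arrays. Over all genes the 4 counts were 9, 90, 744 and 502 (0.0824%, 0.824%, 6.82% and 4.6%). They were 0 to 15 when single arrays were left out, and 1 if dim genes were kept or the filter set at the 60th percentile. With the block and 1 pair left out, all genes gave 0 to 1145 calls, member genes 0 to 7, member probe sets 0 to 7 and listed genes 0 to 23, the highest counts being without replicate 1. Those fits have 1 residual degree of freedom. The contrast of pair 1 with pairs 2 and 3 gave 1767 genes, and 131 without the intensity trend, with 0 members, or 1 (Jun) at an offset of 16. At the 60th percentile Egr2, Egr3 and Jun were too dim to be tested. Egr3 ranged from -1.75 to -0.71, both set by the offset, while the extremes of Jun (0.41 and 1.02) came from leaving out control replicates. Egr1 and Fosb were compared only without the filter on dim genes.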

Other observations

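Among genes of the lists that were chosen after their values were seen, Mrtfa, an SRF co-activator gene, was higher in every pair (0.73, 0.63 and 0.54 on the log2 scale), with 1103, 468 and 453 with NCOR1-LYN against 639.7, 279 and 292 in control cells (adjusted p = 0.0715 with the block in limma). Srf itself had 909, 929 and 895 with NCOR1-LYN against 653, 816 and 817 in control cells, groups that did not overlap (adjusted p = 0.482 with the block). Mrtfb, a paralogue of Mrtfa, was lower in every pair (-0.43, -0.28 and -0.53, adjusted p = 0.173 with the block in limma). Elk4 was lower in every pair too (-0.25, -0.16 and -0.20). Of the 14 tested regulators that induce immediate early genes, 4 were higher and 5 lower in all 3 pairs, where 15.9% and 18.9% of all genes were. Tob1, which encodes an adaptor of mRNA decay, was lower in every pair (-0.57, -0.44 and -0.52, adjusted p = 0.0699 with the block). Mycn, a paralogue of Myc, went both ways, with pairwise log2 changes of 0.89, -0.42 and -0.46.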
